A study of Homo sapiens with 4 samples.

Results

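HOX genes are the homeobox genes that lie in 4 clusters of the human genome, HOXA on chromosome 7, HOXB on chromosome 17, HOXC on chromosome 12 and HOXD on chromosome 2. They were taken as every gene symbol made of HOX, a cluster letter from A to D and a paralog number. This rule found 39 genes among the 26255 gene symbols of the deposited expression files, namely 11 HOXA, 10 HOXB, 9 HOXC and 9 HOXD genes. The cells were MRC5, a fibroblast line established from human fetal lung, with the genotype label WT, and all 4 libraries carry 48 h in their titles. In 2 libraries the treatment label was miRs and in 2, called control here, it was "no". The series title calls the comparison NC-miR against miRs and its design text speaks of transfection, so whether the control cells received a negative-control microRNA is not settled by the sample labels, and the microRNAs used are not named there. All libraries come from 1 cell line, and no label says that the replicates were separate cultures, so p-values here measure the spread between libraries, which may be technical.

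Expression was deposited as FPKM, a count of fragments that is already divided by transcript length and library size. The number of reads behind it is unknown. Between 11622 and 11781 genes reached 1 FPKM in a library, and between 10068 and 10428 were listed at 0. The fibroblast label was checked on 10 marker genes, which were all above 0 in every library and summed to 6736 and 11617 FPKM in miRs replicates 1 and 2, against 9969 and 10109 FPKM in the control replicates. The collagens made up much of that sum. Of the 10, 0 were called, and 4 were lower and 1 higher at an unadjusted p under 0.05 in limma, a linear model fitted over all genes, where 24.2% of all tested genes reached that level. The 4 were VIM, THY1, LUM and DCN, each lower in both miRs libraries. DCN, a matrix proteoglycan, had 352 and 419 FPKM in the miRs replicates, against 963 and 1223 FPKM in the control replicates. The part of these shifts in the HOX values was not tested. Of 12 markers of other cell types, KRT5, CD3E and SOX10 were listed at 0 in all libraries. CDH1, PECAM1 and PTPRC did not exceed 0.0356 FPKM. The 12 summed to 139 and 46.0 FPKM in the miRs replicates, against 54.6 and 58.9 FPKM in the control replicates. Nearly all of that was CD68, a lysosomal protein used as a macrophage marker, with 130.2 and 41.9 FPKM in the miRs replicates, against 53.8 and 57.6 FPKM in the control replicates. DES, a muscle filament protein, had 7.90 and 2.18 FPKM in the miRs replicates, against 0.361 and 0.590 FPKM in the control replicates. MYH11, the other muscle marker of the list, went the other way. It had 0.232 and 0.202 FPKM in the miRs replicates, against 0.332 and 0.387 FPKM in the control replicates. EPCAM, an epithelial surface marker, had 1.07 and 1.61 FPKM in the miRs replicates, against 0 and 0.228 FPKM in the control replicates.

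HOX proteins are DNA-binding transcription factors that give cells their position along the head-to-tail axis of the embryo. Genes of a cluster are switched on in the order in which they lie, so low paralog numbers are used in anterior regions and high numbers in posterior regions, limbs and the urogenital tract. Genes with the same number in different clusters are paralogs that arose by duplication. Adult and fetal fibroblasts keep a HOX pattern that reflects the body site they came from. Polycomb proteins keep unused HOX genes silent, trithorax proteins keep used ones active, and retinoic acid is a classical inducer of the anterior genes. The clusters also hold genes for long noncoding RNAs and for the microRNA families miR-10 and miR-196.

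MRC5 cells expressed HOXA and HOXB genes with paralog numbers from 2 to 7. A total of 11 HOX genes reached the minimum used for testing, a mean of 1 FPKM over the 4 libraries: HOXA2, HOXA3, HOXA4, HOXA5 and HOXA7, and HOXB2 through HOXB7. Another 10 were above 0 in some library but under that mean, and 18 were listed at 0 in all 4 libraries. Genes of paralog groups 1 to 7 numbered 20, of which 11 were tested and 5 were listed at 0 throughout. Those of groups 8 to 13 numbered 19, of which 0 were tested and 13 were listed at 0 throughout, and none exceeded 0.727 FPKM. Groups 1 to 7 held 99.6% and 98.7% of all HOX FPKM in miRs replicates 1 and 2, against 99.6% and 98.6% in control replicates 1 and 2. The shares of the conditions overlapped. The cut after group 7 lies where the levels fall, so the size of these shares follows in part from its place.

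**Figure D1:**
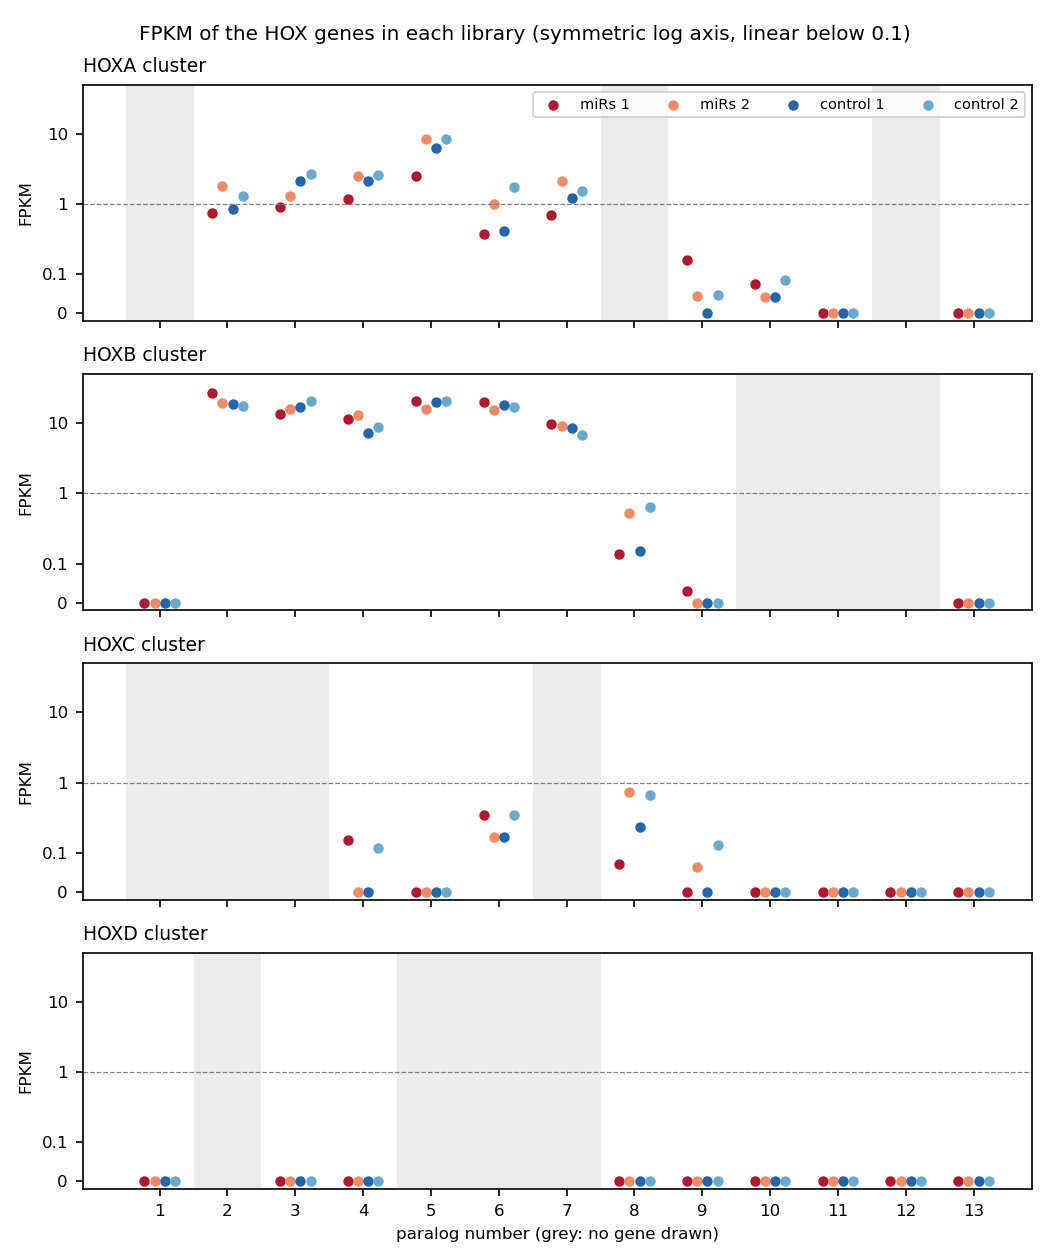
FPKM of the HOX genes reported here in each library, by cluster and paralog number, on a symmetric log axis that is linear below 0.1; points are libraries, the dashed line is 1 FPKM and grey bands mark paralog numbers with no gene drawn. Points above the dashed line lie in HOXA and HOXB at numbers 2 to 7, and all 9 HOXD genes lie at 0.

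The HOXB cluster carried most of the HOX RNA. Its summed level was 101.7 and 88.3 FPKM in miRs replicates 1 and 2, against 89.2 and 91.4 FPKM in control replicates 1 and 2. That was 92.8% and 82.5% of all HOX FPKM in the miRs replicates, against 86.3% and 82.1% in the control replicates. HOXA summed to 7.36 and 17.8 FPKM in the miRs replicates, against 13.7 and 18.6 FPKM in the control replicates. The lowest HOXA sum was that of miRs replicate 1, and the sums of the conditions overlapped in both clusters.

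Ranked by mean control level, the tested genes ran HOXB5, HOXB3, HOXB2, HOXB6, HOXB4, HOXB7, HOXA5, HOXA3, HOXA4, HOXA7 and HOXA2. The first 4 averaged 20.1 ± 0.148, 18.7 ± 2.58, 18.1 ± 0.604 and 17.4 ± 0.567 FPKM in control cells (SD, n = 2 each). The values of HOXB3 spanned those of HOXB5 and HOXB2, so their order did not exceed the spread between libraries. HOXB4, HOXB7 and HOXA5 formed a second level, at 8.01 ± 1.06, 7.64 ± 1.37 and 7.37 ± 1.48 FPKM in control cells, and their values overlapped. HOXA3, HOXA4, HOXA7 and HOXA2 followed at 2.40 ± 0.395, 2.35 ± 0.276, 1.37 ± 0.212 and 1.07 ± 0.339 FPKM in control cells. HOXA3 overlapped with HOXA4 and HOXA7 with HOXA2, while the first pair lay above the last in every control library. In control cells HOXB5 lay above 69.3% of the 11860 genes tested in the series and HOXA2 above 3.05%, so the HOX genes ran from the upper part of the distribution to its bottom.

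The genes under the minimum were close to it or far below. HOXA6 was the nearest, at 0.369 and 0.983 FPKM in miRs replicates, against 0.411 and 1.72 FPKM in control replicates. HOXB8 reached at most 0.639 FPKM and HOXC8 0.727 FPKM. HOXC6 reached 0.350 FPKM, HOXA9 0.159, HOXC4 0.151, HOXC9 0.129, HOXA10 0.0864 and HOXB9 0.0296 FPKM. The genes listed at 0 in all libraries were HOXA11, HOXA13, HOXB1, HOXB13, HOXC5, HOXC10, HOXC11, HOXC12, HOXC13 and all 9 HOXD genes. HOXB13 is a prostate regulator, and HOXA13 and HOXD13 pattern the distal limb.

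Between miRs and control cells, none of the 11 tested HOX genes passed the test. The test was limma on log2(FPKM + 1), 2-sided, over all 11860 genes that averaged 1 FPKM or more, with Benjamini-Hochberg adjustment at 0.05. It called 0 of 11 HOX genes, with adjusted p from 0.143 to 0.979, where 0.245% of all tested genes were called, 12 higher and 17 lower. The same fit called 0 of 8 listed interferon response genes, with a smallest limma adjusted p of 0.0602. Their median difference was 6.26 on the log2 scale, so a gene that is not called is not shown to be unchanged. At an unadjusted p under 0.05 there were 2 HOX genes, HOXA3 and HOXB4, where 24.2% of all tested genes reached that level. Both miRs libraries lay above both control libraries for 3 of the 11, HOXB2, HOXB4 and HOXB7, where 29.5% of all tested genes did so. Both lay below for 2 of the 11, HOXA3 and HOXB3, where 30.0% of all tested genes did so. The HOX shares are therefore near or below those of all genes. The median difference of the 11 was −0.04 on the log2 scale, beside −0.002 over all tested genes, and the median size without its sign was 0.28, beside 0.27. Differences on the log2(FPKM + 1) scale understate the change of genes near 1 FPKM. In bulk RNA, fewer cells of a type and less RNA per cell cannot be told apart.

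**Figure D2:**
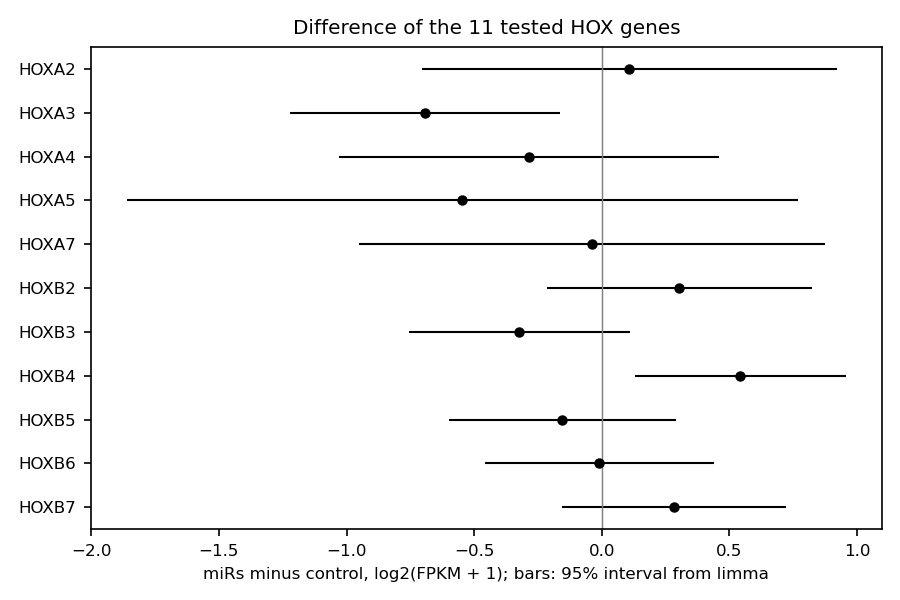
Difference between miRs and control cells on the log2(FPKM + 1) scale for the 11 tested HOX genes; points are limma estimates and bars their 95% intervals, not adjusted for the number of genes. The intervals of HOXA3 (below 0) and HOXB4 (above 0) leave out 0 and those of the other 9 genes hold it.

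In paralog group 3 both tested genes had lower values in both miRs libraries. HOXA3, which is needed for the thymus and parathyroid in mice, had 0.918 and 1.30 FPKM in miRs cells, against 2.12 and 2.68 FPKM in control cells. Its means were 1.11 ± 0.267 FPKM in miRs cells and 2.40 ± 0.395 FPKM in control cells (SD, n = 2 each), a ratio of 0.461, and the groups did not overlap. The limma difference was −0.69 ± 0.20 (SE), with a 95% interval from −1.22 to −0.16 and a Benjamini-Hochberg adjusted p of 0.144. Leaving out miRs replicate 2 gave −0.82 and an adjusted p of 0.0369, in a fit where 3906 genes were called, and over all alternative settings the adjusted p ran from 0.0369 to 0.720. HOXB3, its paralog on chromosome 17, had 13.5 and 15.8 FPKM in miRs cells, against 16.8 and 20.5 FPKM in control cells. The HOXB3 groups did not overlap either, but the gap between the nearest libraries was smaller than the spread within each group. Its difference was −0.32 ± 0.16, with an interval from −0.76 to 0.11 and a limma adjusted p of 0.303. HOXD3, the other gene of this group, was listed at 0. Summed over the group, the level was 14.4 and 17.1 FPKM in miRs cells, against 19.0 and 23.2 FPKM in control cells. The sum of paralog group 5 was also lower in both miRs libraries, at 23.0 and 24.1 FPKM in miRs cells, against 26.4 and 28.7 FPKM in control cells, although its members HOXA5 and HOXB5 each overlapped between the groups. The sums of groups 2, 4 and 7 were higher in both miRs libraries. Group 2 had 27.5 and 20.8 FPKM in miRs cells, against 19.4 and 19.0 FPKM in control cells. Group 4 had 12.6 and 15.4 FPKM in miRs cells, against 9.42 and 11.4 FPKM in control cells. Group 7 had 10.5 and 11.3 FPKM in miRs cells, against 9.83 and 8.19 FPKM in control cells. The sum of group 6 overlapped between the conditions. Most of the sums of groups 2, 4 and 7 was HOXB2, HOXB4 and HOXB7, so they largely repeat those genes. HOXA2, HOXA4 and HOXA7 each overlapped between the groups. Of single tested genes in the series, 29.5% lay higher and 30.0% lower in both miRs libraries.

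HOXA3 and HOXB3 are also the tested HOX genes whose 3′ UTR holds a match to the seed of miR-10, a family encoded inside the HOX clusters. The seed is bases 2 to 8 of a microRNA, which pair with a target. Mature microRNAs of the miR-10 and miR-196 families are shown so that the HOX 3′ UTRs can be read against them, while those of the other listed cluster genes, MIR10B, MIR615 and MIR3185, are not shown. They come from RefSeq (GRCh38.p14), 5′ to 3′ in RNA letters, with the seed in capitals. MIR10A lies on chromosome 17 in the HOXB cluster, MIR196A1 on chromosome 17, MIR196A2 on chromosome 12 and MIR196B on chromosome 7.
hsa-miR-10a-5p: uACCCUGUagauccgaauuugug
hsa-miR-196a-5p: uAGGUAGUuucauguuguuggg
hsa-miR-196b-5p: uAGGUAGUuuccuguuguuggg
The seeds of miR-196a-5p and miR-196b-5p are the same, so their matches are the same letters. The 2 windows with a miR-10 match are shown in DNA letters from the longest 3′ UTR of each gene in GENCODE 29 (GRCh38), on the strand of the gene, with the match ACAGGGT in capitals. It begins at base 300 of the HOXA3 3′ UTR on chromosome 7 and at base 860 of the HOXB3 3′ UTR on chromosome 17.
HOXA3: tttgatcagaaACAGGGTatatgaacaaa
HOXB3: ttaacgtgaaaACAGGGTatatttgaaca
The windows share an unbroken run of 13 bases around the match.

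These matches were looked up after the values of HOXA3 and HOXB3 had been seen, and the labels do not say that miR-10 was used. Matches to ACAGGGT, read on the transcript strand, were held by 2 of the 11 tested HOX genes and by 14.9% of the 10802 tested genes with a 3′ UTR in that annotation. HOXA3 and HOXB3 have the longest 3′ UTRs of the 11, at 1731 and 1464 bases. The median length was 783 bases for the 11 and 1392 bases for the 10802, and these shares were not adjusted for length. The median log2 difference of all genes with the match was −0.02, and that of genes without it was 0.01. The miR-196 match ACTACCT was held by 4 of the 11, HOXA7 with 4 copies and HOXA5, HOXB6 and HOXB7 with 1 each, and by 8.24% of tested genes. Those medians were 0.02 with the match and 0.002 without it. A pair of the HOXA7 copies lies within 1 stretch, at bases 454 and 472 of its 3′ UTR.
HOXA7, base 454: tgaatctcactACTACCTactcccctaaa
HOXA7, base 472: actcccctaaaACTACCTattttgtgctg
HOXA5: tttttattcaaACTACCTatattccttgt
HOXB6: aaggagcacatACTACCTagaagtaagaa
HOXB7: actgaaaaaatACTACCTataggaaagtc
The groups of HOXA5, HOXA7 and HOXB6 overlapped, and HOXB7 was the member of these 4 whose groups did not. A match is a description of the letters and no evidence of a site in use.

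Paralog group 4 had its higher value in HOXB. HOXB4, known for expanding blood stem cells when overexpressed, had 11.3 and 12.9 FPKM in miRs cells, against 7.27 and 8.76 FPKM in control cells. Its means were 12.1 ± 1.16 FPKM in miRs cells and 8.01 ± 1.06 FPKM in control cells (SD, n = 2 each), a ratio of 1.51. The groups did not overlap, and the limma difference was 0.54 ± 0.16 (SE), with a 95% interval from 0.13 to 0.96 and an adjusted p of 0.143. Leaving out miRs replicate 1 gave 0.63 and a limma adjusted p of 0.0440, in a fit where 2191 genes were called, and the adjusted p over all alternatives ran from 0.0440 to 0.746. HOXA4 had 1.16 and 2.49 FPKM in miRs cells, against 2.15 and 2.54 FPKM in control cells. Those groups overlapped, and the HOXA4 interval ran from −1.03 to 0.46. HOXB3 and HOXB4 lie next to each other, and their exons share 159 bases on the same strand in GENCODE 29, so reads in that stretch can be assigned to either gene. HOXB3 shares a longer stretch, 433 bases, with HOXB6 on the same strand. Of HOXB3 and HOXB4, HOXB3 had the lower and HOXB4 the higher mean in miRs cells.

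Other HOXB genes differed less or not in all libraries. HOXB2, which acts in the hindbrain in mice, had 26.8 and 19.0 FPKM in miRs cells, against 18.5 and 17.7 FPKM in control cells. Only miRs replicate 1 stood far above the rest, and the difference was 0.30 ± 0.20 with a limma adjusted p of 0.397. Without miRs replicate 2 the HOXB2 difference was 0.54 with a limma adjusted p of 0.0249, without miRs replicate 1 it was 0.07, and its adjusted p over all alternatives ran from 0.0249 to 0.865. HOXB7 had 9.77 and 9.12 FPKM in miRs cells, against 8.61 and 6.67 FPKM in control cells. Its groups did not overlap, but its interval, from −0.15 to 0.72, held 0.

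HOXB5 and HOXB6 were the nearest to no difference among the highly expressed genes. HOXB5, which takes part in airway branching in the mouse lung, had 20.5 and 15.8 FPKM in miRs cells, against 20.04 and 20.2 FPKM in control cells. The control replicates were close together and the miRs replicates lay apart, and the interval of the difference ran from −0.60 to 0.29. HOXB6 had 19.7 and 15.1 FPKM in miRs cells, against 17.8 and 16.97 FPKM in control cells. Its interval ran from −0.46 to 0.44 around −0.01, so changes larger than 0.46 in either direction on this scale lay outside it. Without miRs replicate 2 both differences turned positive, to 0.03 for HOXB5 and 0.17 for HOXB6, and without control replicate 1 that of HOXB6 was 0.02.

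Apart from HOXA3, the tested HOXA genes overlapped between conditions, and their miRs replicates lay apart. HOXA5, which is required for normal airway and lung development in mice, had 2.49 and 8.28 FPKM in miRs cells, against 6.32 and 8.42 FPKM in control cells. The level in miRs replicate 2 was 3.33 times that in miRs replicate 1, and only miRs replicate 1 lay outside the control range. The difference was −0.55 ± 0.50 (SE), with a 95% interval from −1.86 to 0.77 and a limma adjusted p of 0.536. HOXA7 had 0.692 and 2.14 FPKM in miRs cells, against 1.22 and 1.52 FPKM in control cells. Its miRs replicates lay on either side of the control replicates, 3.09 times apart. HOXA2, which sets the identity of the second pharyngeal arch in mice, had 0.749 and 1.82 FPKM in miRs cells, against 0.834 and 1.31 FPKM in control cells. Intervals ran from −0.95 to 0.87 for HOXA7 and from −0.71 to 0.92 for HOXA2, wide enough to hold changes of either sign.

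The 5 tested HOXA genes moved together between replicates. All 5 were lowest in miRs replicate 1, where 33.1% of all tested genes had their lowest value. All 5 were higher in miRs replicate 2 than in miRs replicate 1, with a median gap of 0.69 on the log2 scale, where 48.8% of all tested genes were higher and the median gap was −0.01. All 5 were also higher in control replicate 2 than in control replicate 1, with a median gap of 0.24, where 48.6% of all tested genes were higher. The replicate numbers are not known to link libraries of the 2 conditions, so the shared direction carries no meaning by itself. Of the 6 tested HOXB genes, 4 were higher in miRs replicate 1, with a median gap of −0.22, and 3 were higher in control replicate 2. The HOXA gap between replicates was thus present in both conditions and larger in miRs cells. HOXB3 and HOXB4 were also higher in replicate 2 of both conditions, and the other tested HOXB genes were not. Replicate 2 had 1.17 and 1.15 times the HOXB3 and HOXB4 level of replicate 1 in miRs cells, and 1.22 and 1.21 times in control cells. The genes are neighbours in 1 cluster and are not independent of each other.

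**Figure D3:**
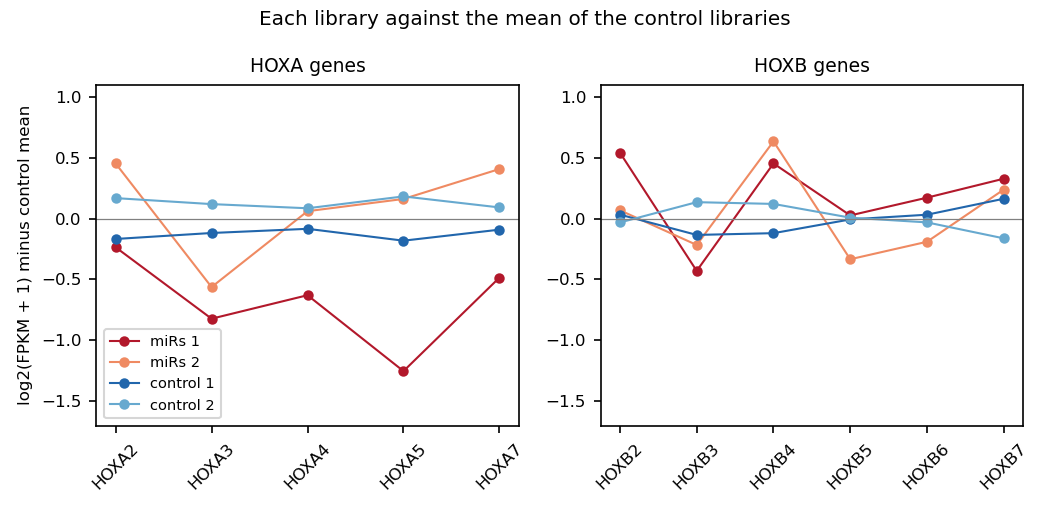
Log2(FPKM + 1) of each tested HOXA gene (left) and HOXB gene (right) in each library, minus the mean of the control libraries for that gene; lines join the genes of a library. The line of miRs replicate 1 is the lowest at all 5 HOXA genes, and no library keeps 1 rank across the HOXB genes.

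The HOXA result therefore rests on which miRs library is used. The median difference of the tested HOXA genes was −0.28, but leaving out miRs replicate 1 gave 0.11, and leaving out miRs replicate 2 gave −0.73. Each median covers the HOXA genes that reached the minimum in that fit, so the sets differ. HOXA6 entered without miRs replicate 1, and HOXA2 dropped out without miRs replicate 2. Without miRs replicate 1 the differences of HOXA4, HOXA5 and HOXA7 turned positive, to 0.06, 0.16 and 0.41. Without miRs replicate 2 the HOXA5 difference was −1.25 with a limma adjusted p of 0.0161, and over all alternatives that p ran from 0.0161 to 0.905. HOXA7 also turned positive, to 0.05, without control replicate 2, and HOXA2 turned negative, to −0.06, without control replicate 1. HOXA3 kept its sign in every alternative, from −1.06 to −0.56.

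Both miRs replicates also stood apart from each other outside the HOX genes. An interferon response list of 8 genes summed to 9079 and 1838 FPKM in miRs replicates 1 and 2, against 53.7 and 66.7 FPKM in control replicates 1 and 2. Its member ISG15, a ubiquitin-like protein made in response to interferon, had 3648 and 726 FPKM in miRs cells, against 33.8 and 37.5 FPKM in control cells. ISG15 was not called, with a limma adjusted p of 0.070, and 0 of the 8 genes were. The summed fibroblast markers were also lowest in miRs replicate 1, and COL1A1, a collagen chain, had 1910 and 4742 FPKM in miRs cells, against 2337 and 2521 FPKM in control cells. The part of these in the low HOXA levels of that library was not tested.

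Few noncoding RNAs of the clusters were expressed at the level used for testing. Of 20 listed long noncoding RNAs, 18 were in the files, 12 of them were listed at 0 in all libraries and 3 reached the minimum for testing. The 12 include HOTAIR of the HOXC cluster, HOTTIP at the posterior end of HOXA and HAGLR of the HOXD cluster. HOXA-AS2 and HOXA-AS3, which overlap tested HOXA genes on the opposite strand, stayed under the minimum, at no more than 0.777 and 0.136 FPKM. All 7 listed microRNA genes of the clusters, MIR10A and MIR196A1 of the HOXB cluster among them, were listed at 0, in libraries selected for polyadenylated RNA. HOTAIRM1, which lies at the anterior end of HOXA, had 5.96 and 8.402 FPKM in miRs cells, against 5.54 and 5.89 FPKM in control cells. HOXB-AS1 had 1.61 and 1.13 FPKM in miRs cells, against 2.07 and 1.45 FPKM in control cells. The limma adjusted p was 0.436 for HOTAIRM1 and 0.581 for HOXB-AS1. Of the related ParaHOX and EVX genes, 7 of 8 were listed at 0 throughout, and the eighth, CDX1, had 0.0940 and 0.161 FPKM in miRs cells, against 0 in both control replicates.

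HOXB-AS3 had the largest difference of the tested RNAs of the clusters on the log2(FPKM + 1) scale, although HOXA3 had the wider ratio of means, 0.461 beside 0.513, and the larger difference with a pseudocount of 0.1, −1.06 beside −1.01. This antisense transcript had 19.6 and 32.9 FPKM in miRs cells, against 49.9 and 52.3 FPKM in control cells. Its level in control cells was higher than that of any HOX gene, and the groups did not overlap. The difference was −0.98 ± 0.27 (SE) on the log2 scale, with a limma adjusted p of 0.134, so it did not pass the threshold. Leaving out a miRs library gave −0.62 with an adjusted p of 0.0196 (without miRs replicate 1) and −1.34 with an adjusted p of 0.00414 (without miRs replicate 2), and over all alternatives it ran from 0.00414 to 0.655. In GENCODE 29 its exons overlap those of HOXB6 by 425 bases, of HOXB3 by 77 and of HOXB5 by 73, all on the opposite strand. The kit keeps the strand, but no source used here gives the strand setting of the counting, so reads in those shared stretches cannot be told apart. They are a minor part of the 1913 exon bases of HOXB-AS3. Of these 3 genes, HOXB3 was lower in both miRs libraries, as HOXB-AS3 was, while HOXB5 and HOXB6 overlapped between the groups.

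**Figure D4:**
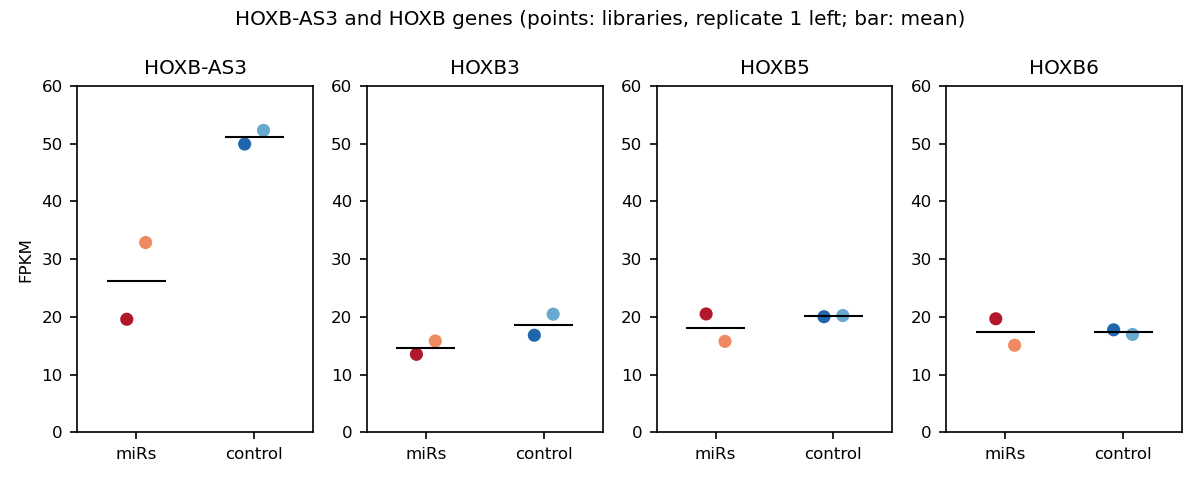
FPKM of the antisense RNA HOXB-AS3 and of the genes whose exons it overlaps, HOXB3, HOXB5 and HOXB6, in miRs and control cells; points are libraries (replicate 1 left) and bars group means. HOXB-AS3 lies at 19.6 and 32.9 FPKM in miRs cells, below the control replicates at 49.9 and 52.3 FPKM; HOXB3 is also lower in both miRs libraries, and HOXB5 and HOXB6 overlap between the groups.

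Cofactors give HOX proteins their DNA specificity by binding beside them. Of 11 listed cofactor genes 9 were tested and 0 were called, with a median difference of 0.18. At an unadjusted limma p under 0.05, 2 were higher and 2 lower, where 24.2% of all tested genes reached that level in either direction. The 2 higher were TGIF1 and TGIF2, which are outside the PBX, MEIS and PKNOX families, and the 2 lower were MEIS3 and PKNOX1. TGIF2, a TALE repressor related to the MEIS proteins, had 8.63 and 9.03 FPKM in miRs cells, against 5.05 and 4.95 FPKM in control cells. TGIF1 had 25.5 and 32.5 FPKM in miRs cells, against 18.8 and 21.0 FPKM in control cells. MEIS3, a cofactor of the TALE class, had 10.7 and 14.7 FPKM in miRs cells, against 20.3 and 24.1 FPKM in control cells. PKNOX1, a partner of PBX proteins, had 4.70 and 4.60 FPKM in miRs cells, against 6.28 and 6.48 FPKM in control cells. For each of these 4 genes, picked by the smallest p, the groups did not overlap. Over all tested genes, 29.5% lay higher and 30.0% lower in both miRs libraries. The limma adjusted p values were 0.0863, 0.171, 0.126 and 0.177 in the order given.

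All 23 listed Polycomb genes reached the minimum and 0 were called. At an unadjusted limma p under 0.05, 5 of the 23 were higher and 5 lower, beside 24.2% of all tested genes, with a median difference of 0.12 and a smallest adjusted p of 0.0692. That was MTF2, a subunit that recruits Polycomb repressive complex PRC2, with 10.6 and 8.65 FPKM in miRs cells, against 4.002 and 3.89 FPKM in control cells. PHF19, a relative of MTF2, had 56.1 and 60.5 FPKM in miRs cells, against 41.0 and 39.6 FPKM in control cells. The third of these PRC2 subunits, PHF1, had 11.3 and 14.9 FPKM in miRs cells, against 24.0 and 25.3 FPKM in control cells. CBX6, a chromodomain protein of PRC1, had 9.92 and 12.2 FPKM in miRs cells, against 23.7 and 19.98 FPKM in control cells. MTF2 and PHF19 had higher and PHF1 and CBX6 lower means in miRs cells, with limma adjusted p of 0.0692, 0.109, 0.0925 and 0.0863.

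Of 17 trithorax genes and H3K27 demethylases, all tested, 0 were called. At an unadjusted limma p under 0.05, 2 of the 17 were higher and 1 lower, beside 24.2% of all tested genes. The median difference was 0.06, and the median size without its sign was 0.15, beside 0.27 over all tested genes. KDM6A, which removes the Polycomb mark H3K27 methylation, had 6.78 and 5.43 FPKM in miRs cells, against 3.21 and 3.32 FPKM in control cells. DOT1L, a histone H3K79 methyltransferase, had 8.88 and 9.72 FPKM in miRs cells, against 5.64 and 6.27 FPKM in control cells. ASH1L, a trithorax methyltransferase, had 4.82 and 5.54 FPKM in miRs cells, against 8.83 and 7.92 FPKM in control cells. KMT2A, the MLL protein that keeps HOX genes active, had 4.04 and 5.16 FPKM in miRs cells, against 6.02 and 7.22 FPKM in control cells. The groups of all 4, picked by the smallest p, were apart, where 29.5% of all tested genes lay higher and 30.0% lower in both miRs libraries. Their limma adjusted p values were 0.102, 0.112, 0.112 and 0.220.

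Retinoic acid genes held the largest difference of these 4 lists. Of 18 listed, 8 were tested, 4 were listed at 0 in all libraries and 0 were called, with a median difference of −0.09. At an unadjusted limma p under 0.05, 1 was higher and 1 lower, beside 24.2% of all tested genes. CRABP2, which carries retinoic acid to its receptor, had 46.4 and 136 FPKM in miRs cells, against 8.20 and 11.1 FPKM in control cells. It differed by 2.93 on the log2 scale, with a limma adjusted p of 0.0866. RDH10, which makes retinal, had 5.03 and 7.62 FPKM in miRs cells, against 13.5 and 11.7 FPKM in control cells, with an adjusted p of 0.112. RXRB and DHRS3 had lower means in miRs cells, with adjusted p of 0.242 and 0.277. Among the receptors, RARB, a direct target of retinoic acid, was listed at 0 in 3 libraries and at 0.0352 FPKM in miRs replicate 2.

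Calls in these lists and among the noncoding RNAs depended on which library was used. Leaving out either miRs library called some of their genes, in fits where calls over all genes rose as well. Leaving out either control library called 0. Of the 16 genes named for the 4 lists, TGIF1 was called without miRs replicate 1 alone, and MEIS3, ASH1L, KMT2A, RXRB and DHRS3 without miRs replicate 2 alone. PKNOX1 was called in neither fit, and the other 9 were called in both. All 16 had the same sign in every alternative setting.

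**Figure D5:**
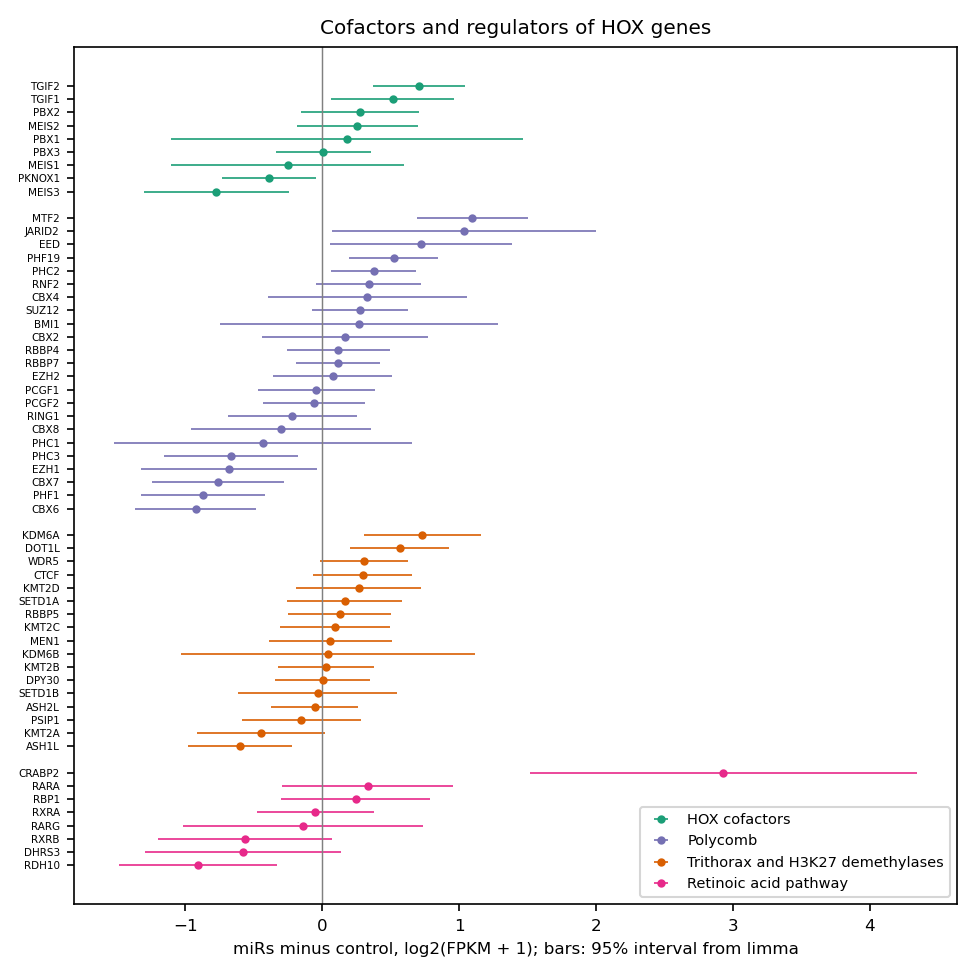
Difference between miRs and control cells on the log2(FPKM + 1) scale for the tested cofactor, Polycomb, trithorax and retinoic acid genes; points are limma estimates and bars 95% intervals, not adjusted for the number of genes. CRABP2, at 2.93, has the largest estimate of those plotted, and genes on either side of 0 occur in every list.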

How the data were processed

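RNA of MRC5 cells was measured in 4 libraries, 2 with the treatment label miRs and 2 with the treatment label "no", and the titles gave the replicate numbers. According to the protocols in the labels, RNA was purified with an RNeasy kit and libraries were made with a TruSeq Stranded mRNA kit. Values were deposited as FPKM, per the file headers. Cuffdiff 2.2.1, SAMtools 0.1.18, TopHat2 2.1.1, Bowtie2 2.2.8 and the build hg19 are listed in the submitters' processing notes. No source used here gives the annotation, strand setting or library scaling. FPKM is no count, so the depth is unknown and no count test was run. Estimates of genes with shared exons depend on how fragments were assigned.

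Values were tested with limma 3.58.1 (R 4.3.3) on log2(FPKM + 1), with a variance trend, over genes that averaged 1 FPKM or more, 2-sided, with Benjamini-Hochberg adjustment over all tested genes at 0.05. With 2 libraries a group, 2 residual degrees of freedom remain. The fit was tested on simulated data with changes larger than those of the HOX genes. That run does not measure the power for differences of the size seen in HOX genes. Tables were made with Python 3.11.15. The members and lists were chosen with earlier results of these data known. All HOX genes that reached the minimum are named, the others by their highest value except 1 that is counted but not reported here, and up to 4 genes of each other list by the smallest p. RARB, the other listed genes at or near 0, ISG15, COL1A1 and marker genes were named beside them after their values were seen. Alternatives were a pseudocount of 0.1, no minimum, a minimum of 5 FPKM, median-of-ratios and quantile scaling, no variance trend, a replicate block and leaving out each library. Sequences come from RefSeq (GRCh38.p14) and GENCODE 29 transcripts (GRCh38), which are not the build of the files, so no position was carried between them.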

Additional observations from a re-analysis of the deposited data

How the results depend on the processing

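The HOX count stayed at 0 called under 7 alternatives that kept all libraries, the replicate block included, and ran from 0 to 3 over fits that left out 1 library. In such a fit the lone library of a group is assumed to vary like the other group. Calls over all genes numbered 29, against 0 with no minimum FPKM, 6 with quantile scaling and 99 with the replicate block, and they ran from 0 to 3906 when a library was left out. Calls in the other lists numbered 0, against 1 with the block (CRABP2, adjusted p = 0.0488 in limma), and ran from 0 to 22 without a library. The replicate numbers were taken only as numbers, since the deviations of same-numbered libraries correlated at 0.201 across genes in 2 pairs. The HOXB median of 0.14 was 0.0057 with no minimum, where many genes near 0 enter, and ran from −0.061 to 0.25 without a library. The HOXA median ran from −0.73 to 0.11 without a library, over the HOXA genes that reached the minimum in each fit. Differences that changed sign without a library ran from −0.059 to 0.45 for HOXA2, −0.63 to 0.060 for HOXA4, −1.25 to 0.16 for HOXA5, −0.48 to 0.41 for HOXA7, −0.33 to 0.026 for HOXB5 and −0.19 to 0.17 for HOXB6. Signs of HOXA3, HOXB2, HOXB3, HOXB4 and HOXB7 did not change in any alternative, and no scaling moved the median of all genes by more than 0.1. With 2 libraries a group and an unknown depth, the differences of HOXA3 and HOXB4 did not pass the adjusted threshold in the fit of all libraries.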
